A study of Mus musculus with 9 samples.

Results

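Glutamate is the main excitatory transmitter of the hippocampus, and the genes described here encode its receptors and the proteins that hold them at the synapse. They were taken as a listed set of 44 genes, of which 42 were measured among 18820 genes with a probe set that names 1 gene. Grin1, the obligatory NMDA receptor subunit gene, has no probe set listed under its name in the probe table used, and Homer3 shares its 2 probe sets with Ddx49, so neither has a value. Levels are log2 of the quantile-normalised array signal plus 16, and a difference of 0.26 on this scale is 1.2-fold.

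Signals came from 9 Affymetrix arrays of whole hippocampus from C57BL/6 mice aged 12 to 14 weeks, with 3 arrays in each of 3 groups. Control mice had no stated surgery or treatment. The surgery group had an orthopedic operation, a fracture of the tibia, and the Surgery+Maresin1 group received Maresin 1, a lipid mediator made from docosahexaenoic acid, before the same operation. Tissue was collected 72 h after surgery, each array used 6 µg of total RNA, and the titles call the arrays biological replicates. The labels give no dose of Maresin 1, no vehicle and no sham or anaesthesia group, so an operated mouse differs from a control mouse in all that went with the operation. Whether an array holds 1 mouse or a pool is not stated.

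AMPA receptors, built from Gria1 to Gria4, carry most fast excitatory current, and auxiliary proteins (the TARPs, the cornichons and Prrt1) set their traffic and gating. NMDA receptors pass calcium when glutamate and depolarisation coincide, kainate receptors act on both sides of the synapse, and metabotropic receptors signal through G proteins. Scaffolds of the Dlg, Dlgap, Shank and Homer families link these receptors to each other and to actin, while CaMKII and the spine apparatus translate calcium into lasting change of synaptic strength.

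All 42 measured members had a mean level above 5.86, the 95th percentile of 990 olfactory receptor genes, which serve as a guide to background. Markers of the tissue were present: all measured markers of glutamatergic neurons (5), dentate granule neurons (8), CA1 (6) and CA3 (6) pyramidal neurons lay above that level. Median deposited signals ran from 54.1 to 100.1 between arrays. The choroid plexus marker list set control replicates 2 and 3 apart: the median deviation of its 9 genes was 2.28 and 2.52 there, -0.98 in control replicate 1, -0.68 to -0.63 after surgery and -0.68 to -0.51 with Maresin 1. Its 9 genes include 8 above the background guide, and Ttr, its defining gene, was not at 0 in any array. Values against control replicate 1 alone stand beside results for which that array was decisive. In whole tissue, fewer cells of a type and less RNA per cell cannot be told apart.

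No member passed the adjusted threshold in any of the 3 comparisons. With limma and p adjusted by Benjamini-Hochberg (threshold 0.05), 0 of 42 members were called after surgery against control, 0 with Maresin 1 against surgery and 0 with Maresin 1 against control, beside 0%, 0% and 0.085% of all genes. At an unadjusted p under 0.05 the counts were 2, 4 and 12 of 42, or 4.76%, 9.52% and 28.6%, beside 6.21%, 5.66% and 11.5% of all genes. The 12 with Maresin 1 against control were 4 higher and 8 lower, beside 5.87% and 5.61% of all genes. Groups did not overlap for 4, 5 and 8 members, or 9.52%, 11.9% and 19%, beside 11.5%, 13% and 14.3% of all genes. By direction they were 3 higher and 1 lower after surgery (7.71% and 3.82% of all genes), 2 higher and 3 lower with Maresin 1 against surgery (4.79% and 8.2%), and 2 higher and 6 lower with Maresin 1 against control (7.61% and 6.71%). The share of members between surgery and control was thus near the background. With Maresin 1 against control it lay above it, and no test of the list was made. Both comparisons with control share the control arrays, and both comparisons with surgery share the surgery arrays.

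The members varied little from array to array. Their median standard deviation within a group was 0.08, beside 0.11 over all genes. The standard error (SE) of a difference ran from 0.03 for Camk2a to 0.17 for Grm8. The 95% interval of the difference lay wholly within 1.2-fold in either direction for 34 members after surgery against control, 28 with Maresin 1 against surgery and 25 with Maresin 1 against control. For these members a larger change is outside the interval under quantile normalisation, whereas for the others the data do not settle it. The intervals carry no uncertainty of the scaling. With linear scaling, Cnih3 after surgery against control was at 0.30 and Cacng2 with Maresin 1 against surgery at -0.28, both beyond 1.2-fold. Part of each was shared with all genes, whose medians with that scaling were 0.10 and -0.089 in the same comparisons.

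**Figure D1:**
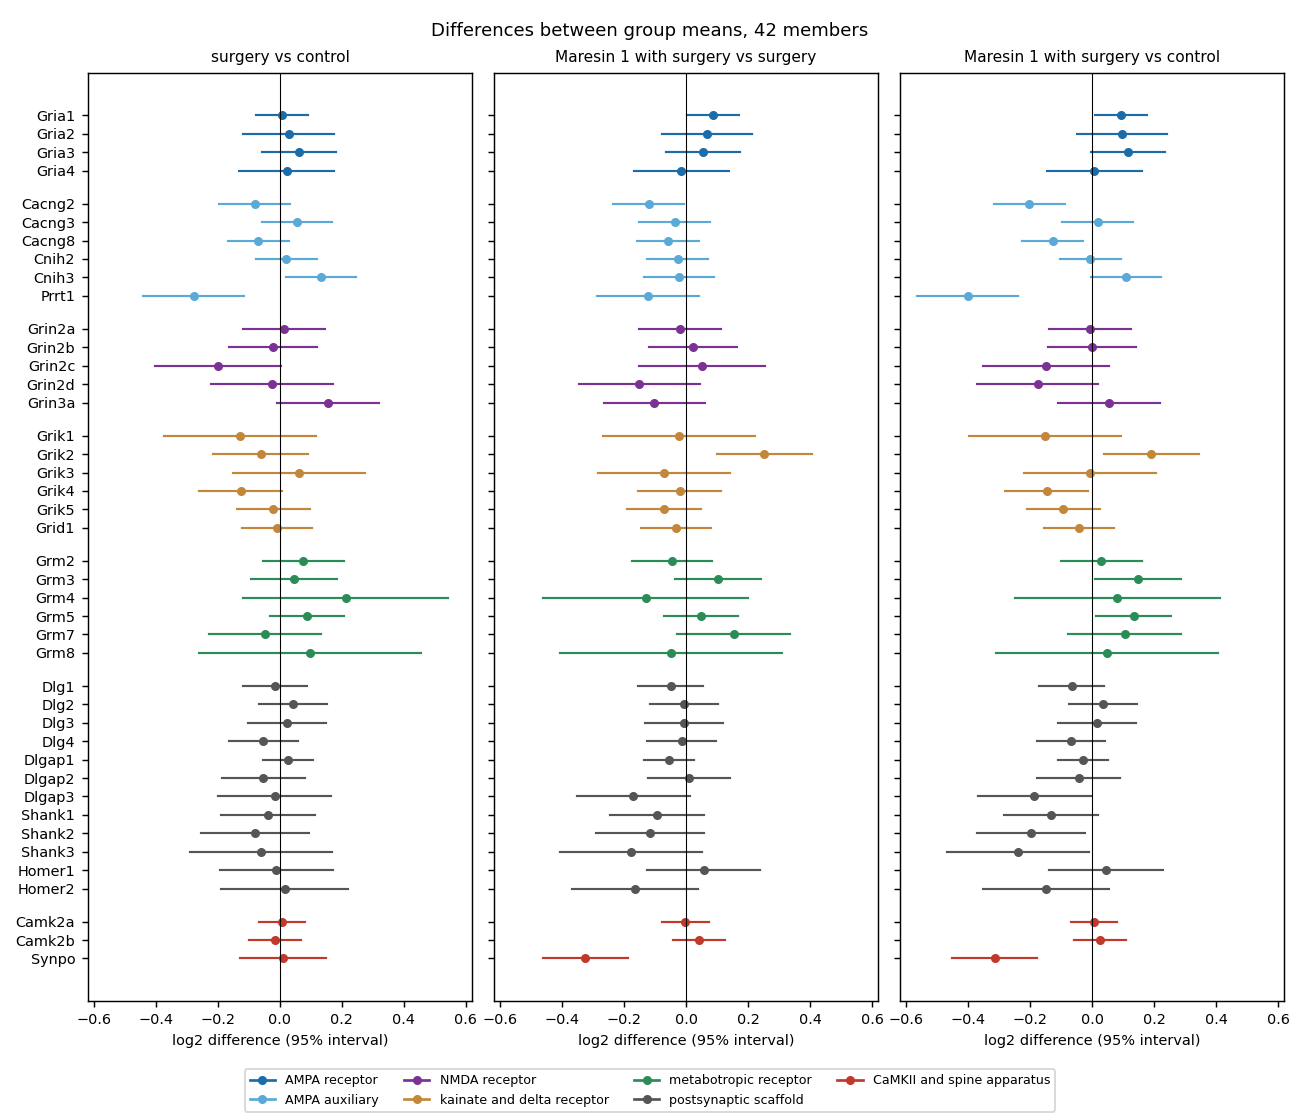
Differences between group means on the log2 scale (x axis) for the 42 measured members (y axis, coloured by class), with the 95% interval of the limma model as a bar, 3 arrays per group. Most intervals cross 0, and in the comparison of Maresin 1 with control the points farthest from it are Prrt1 and Synpo, at -0.40 and -0.32.

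The AMPA receptor auxiliary genes held the member with the largest difference from control. Prrt1, which encodes a membrane protein that binds AMPA receptors and supports their surface pool, stood at 9.84, 9.94 and 9.66 in control replicates 1 to 3. It stood at 9.62, 9.53 and 9.45 in surgery replicates 1 to 3, and at 9.43, 9.33 and 9.47 with Maresin 1. All 6 operated arrays lay below all 3 control arrays, while the operated groups overlapped each other. Prrt1 was lower by 1.32-fold with Maresin 1 than in control (log2 -0.40, SE 0.08, interval -0.57 to -0.24, adjusted p = 0.0792). It was lower by 1.21-fold after surgery than in control (log2 -0.28, SE 0.08, adjusted p = 0.63), which was -0.11 with linear scaling of the arrays, and log2 -0.12 (SE 0.08) between Maresin 1 and surgery. Prrt1 passed the threshold in the comparison of Maresin 1 with control when control replicate 1 was left out (adjusted p = 0.0440) or control replicate 3 was (0.0399). It did not without control replicate 2 (limma adjusted p = 0.210) or without Maresin 1 replicate 2 (0.277). Leaving out control replicate 1 raised the calls over all genes from 16 to 245. Endothelial markers also set the operated arrays apart: all 5 were higher than control after surgery, by 0.31 to 0.59 (4 without overlap), and all 5 with Maresin 1, by 0.33 to 0.49 (3 without overlap). Their part in the Prrt1 value, and in that of Cnih3, was not tested. Against control replicate 1 alone, which had the low choroid plexus level, the Maresin 1 difference was -0.42 and the surgery difference -0.30.

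Cacng2 encodes stargazin, the TARP known from the stargazer mouse. Its levels were 10.29, 10.25 and 10.14 in control, 10.09, 10.16 and 10.18 after surgery, and 10.05, 10.02 and 10.01 with Maresin 1. The Maresin 1 arrays were the lowest 3 of the 9. The difference was -0.20 from control (SE 0.05, interval -0.32 to -0.09, adjusted p = 0.168) and -0.12 from surgery (SE 0.05, adjusted p = 0.859). A further probe set of Cacng2 gave -0.23 (SE 0.07) and -0.14 (SE 0.07) for the same differences. Cacng8, which encodes the TARP gamma-8 that is abundant in hippocampus, stood at 11.10, 11.05 and 11.13 in control, 11.06, 10.99 and 11.02 after surgery and 10.91, 10.95 and 11.04 with Maresin 1. It did not overlap between Maresin 1 and control, with a difference of -0.13 (SE 0.05, adjusted p = 0.287).

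Cnih3, which encodes a cornichon that slows AMPA receptor closing, lay on the other side. Its levels were 9.89, 9.94 and 10.01 in control, 10.12, 10.10 and 10.03 after surgery, and 10.02, 10.05 and 10.10 with Maresin 1. All operated arrays were above all controls, by 0.13 after surgery (SE 0.05, adjusted p = 0.768) and 0.11 with Maresin 1 (SE 0.05, adjusted p = 0.453). The other cornichon gene, Cnih2, had group means of 12.14 to 12.17, and the TARP gene Cacng3 of 10.88 to 10.94. Of the 6 auxiliary genes, 6 were lower with Maresin 1 than after surgery, by 0.02 to 0.12, beside 58.3% of all genes. The same held with cyclic loess, and with linear scaling of the arrays, where 41 of the 42 members were lower. Single arrays mattered here too. Cacng3 was at 0.023 without surgery replicate 3, and Cnih2 at 0.0013 without Maresin 1 replicate 2.

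The upstream sequences of the 4 auxiliary genes whose groups did not overlap are shown because these genes share a function and lay on opposite sides of control. They are the 250 bases before the annotated start, from RefSeq. The GC box, an SP1-type element with the letters GGGCGG on either strand, is in capitals.
Prrt1 (GRCm38.p6, chr17:34629314-34629563, plus strand): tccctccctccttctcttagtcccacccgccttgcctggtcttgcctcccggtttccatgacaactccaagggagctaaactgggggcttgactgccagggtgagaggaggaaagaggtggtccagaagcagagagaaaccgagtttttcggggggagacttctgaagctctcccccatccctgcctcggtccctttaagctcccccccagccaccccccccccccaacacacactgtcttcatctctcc
Cacng2 (GRCm38.p6, chr15:78119281-78119530, minus strand): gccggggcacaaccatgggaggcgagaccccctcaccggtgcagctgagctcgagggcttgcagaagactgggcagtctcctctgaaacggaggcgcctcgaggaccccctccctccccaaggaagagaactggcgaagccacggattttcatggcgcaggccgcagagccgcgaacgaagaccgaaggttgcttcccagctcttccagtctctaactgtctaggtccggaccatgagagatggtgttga
Cacng8 (GRCm38.p6, chr7:3393792-3394041, plus strand): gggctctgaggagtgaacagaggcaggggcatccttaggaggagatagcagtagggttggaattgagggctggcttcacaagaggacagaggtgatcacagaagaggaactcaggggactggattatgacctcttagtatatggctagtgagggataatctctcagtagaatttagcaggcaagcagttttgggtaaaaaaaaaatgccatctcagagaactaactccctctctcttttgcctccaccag
Cnih3 (GRCm38.p6, chr1:181352378-181352627, plus strand): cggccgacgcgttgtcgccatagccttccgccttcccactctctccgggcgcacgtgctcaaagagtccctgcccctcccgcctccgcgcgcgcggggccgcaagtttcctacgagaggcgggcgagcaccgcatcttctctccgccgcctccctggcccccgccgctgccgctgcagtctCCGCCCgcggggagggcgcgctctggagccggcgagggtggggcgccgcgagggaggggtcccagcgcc
The GC box occurs in the Cnih3 window and not in the windows of the 3 auxiliary genes that were lower. Its presence did not follow direction beyond these genes. Grik4 and Dlg1, also lower with Maresin 1 than in control without overlap, held a GC box too, Dlg1 in some of its windows. The GC content was 60%, 62% and 48% for Prrt1, Cacng2 and Cacng8 and 76% for Cnih3. Over the 42 upstream windows of the 28 measured members with an entry, 18 held a GC box (42.9%), beside 32.7% of all 32851 windows of this length. The cyclic AMP response element TGACGTCA was in 0 of the 42 and in 1.55% of all windows, and the NRF1 palindrome in 0 and 0.782%, both strands searched. Windows follow annotated starts, which may not be those used in hippocampus, and windows of a gene can overlap. A match describes letters only and tells nothing of binding.

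AMPA receptor subunit genes lay close together across the groups. Gria1, the subunit gene most tied to synaptic plasticity, stood at 11.98, 11.94 and 11.98 in control, 11.99, 11.93 and 11.99 after surgery, and 11.99, 12.07 and 12.11 with Maresin 1. The Maresin 1 arrays were above all controls, by 0.09 (SE 0.04, adjusted p = 0.381), and replicate 1 of that group was level with the surgery arrays. Gria3 stood at 11.36, 11.37 and 11.26 in control, 11.37, 11.35 and 11.47 after surgery, and 11.34, 11.46 and 11.54 with Maresin 1, with overlap in each comparison. Its differences were 0.06 for surgery against control and 0.12 for Maresin 1 against control (SE 0.06, adjusted p = 0.447). Gria2, whose edited subunit blocks calcium entry, had group means of 11.24, 11.26 and 11.33, and Gria4, which interneurons use, of 9.31, 9.33 and 9.32.
All 4 were above control in both operated groups, by 0.01 to 0.12, but this rested on single arrays. After surgery the split was 2 higher and 2 lower without control replicate 2 or without control replicate 3, and 1 higher and 3 lower without surgery replicate 3 or against control replicate 1 alone. With Maresin 1 it was 3 and 1 without control replicate 2 or 3, and 2 and 2 against control replicate 1 alone. With cyclic loess Gria1 took the other sign after surgery. With linear scaling, none of the 4 was higher with Maresin 1 than after surgery.

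NMDA receptor genes included the pair that marks synapse maturation, Grin2a and Grin2b, whose products set channel kinetics. Grin2a had group means of 11.16, 11.17 and 11.15 in control, surgery and Maresin 1, and Grin2b of 11.40, 11.38 and 11.40. All differences of this pair lay between -0.02 and 0.02, with SE 0.06 to 0.07. Grin2c, a subunit gene of cerebellum and glia that is low in hippocampal principal cells, stood at 8.62, 8.82 and 8.81 in control, 8.67, 8.48 and 8.49 after surgery, and 8.71, 8.40 and 8.69 with Maresin 1. It differed by -0.20 after surgery (SE 0.09, adjusted p = 0.794) with overlap, and by -0.07 against control replicate 1 alone.
Grin2d, an interneuron-rich subunit gene, stood at 7.91, 7.73 and 7.92 in control, 7.67, 7.91 and 7.90 after surgery, and 7.71, 7.74 and 7.58 with Maresin 1. Its difference of -0.18 between Maresin 1 and control (SE 0.09, adjusted p = 0.499) came with overlap. Grin3a, whose subunit lowers calcium flow, stood at 9.33, 9.09 and 9.33 in control, 9.42, 9.41 and 9.38 after surgery, and 9.37, 9.35 and 9.18 with Maresin 1. The surgery arrays were above all others, by 0.16 over control (SE 0.08, adjusted p = 0.794) and by 0.10 over Maresin 1 (SE 0.08, adjusted p = 0.886). Control replicate 2 was the lowest, and the surgery difference was 0.08 against control replicate 1 alone.

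**Figure D2:**
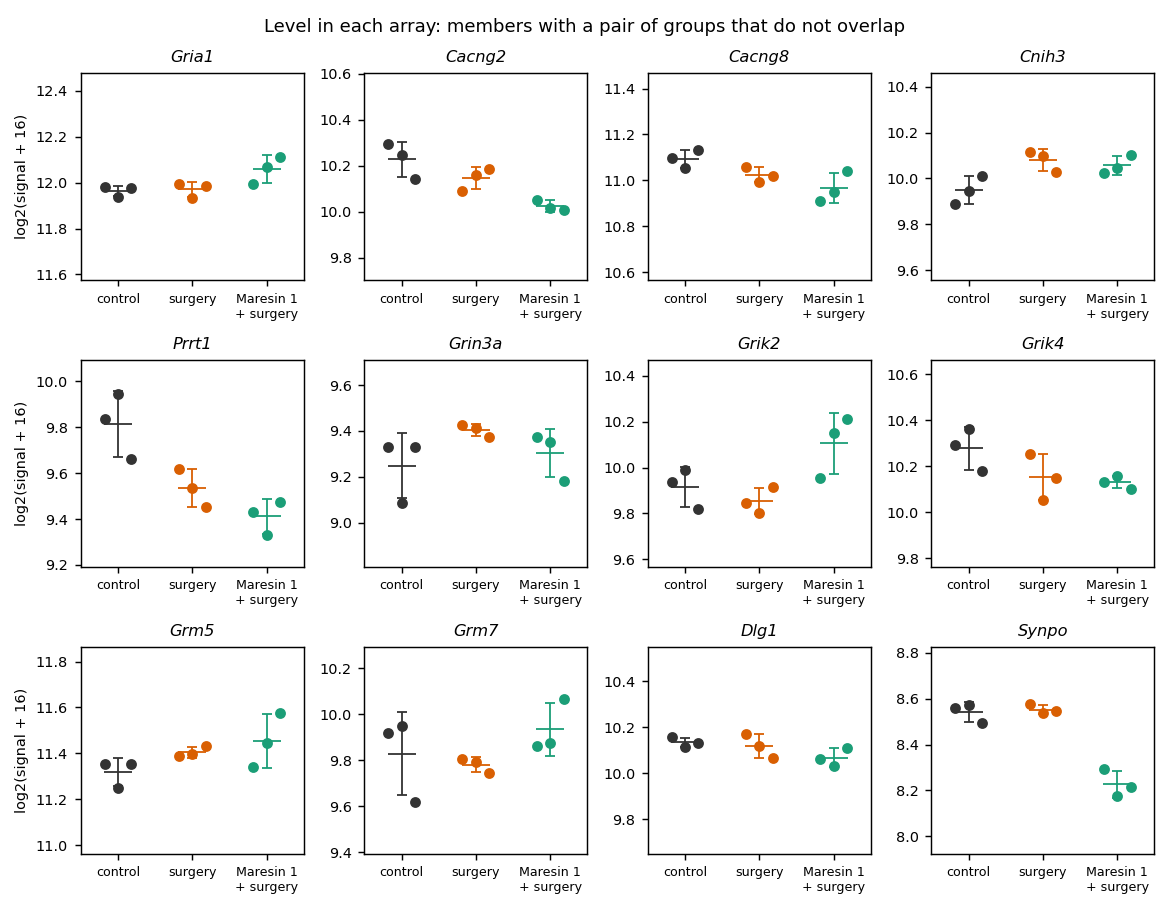
Level in each array, as log2(signal + 16) on the y axis, for the 12 members with at least 1 pair of groups that do not overlap; points are replicates 1 to 3 from left to right, the bar is the group mean and the whiskers are the SD. Every panel spans the same range. Synpo lies lower in the Maresin 1 arrays than in the other 6, and Prrt1 lies higher in control.

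Kainate receptor genes were led by Grik2, which encodes the GluK2 subunit of mossy fibre synapses. It stood at 9.94, 9.99 and 9.82 in control, 9.85, 9.80 and 9.91 after surgery, and 9.96, 10.15 and 10.21 with Maresin 1. Maresin 1 arrays were above all surgery arrays by 1.19-fold (log2 0.25, SE 0.07, interval 0.10 to 0.41, adjusted p = 0.859; 0.09 with linear scaling), while replicate 1 lay within the range of control. The difference from control was 0.19 (SE 0.07, adjusted p = 0.304). Grik4, which encodes the high-affinity subunit GluK4 of CA3 neurons, stood at 10.29, 10.36 and 10.18 in control, 10.25, 10.05 and 10.15 after surgery, and 10.13, 10.16 and 10.10 with Maresin 1. It was lower with Maresin 1 than in control without overlap, by 0.15 (SE 0.06, adjusted p = 0.384).
The interneuron subunit gene Grik1 had group means of 7.73, 7.60 and 7.58 (SD 0.22, 0.08 and 0.15, n = 3 each), Grik3 of 9.54, 9.60 and 9.53, the high-affinity Grik5 of 10.97, 10.95 and 10.88, and the delta receptor gene Grid1 of 10.22, 10.21 and 10.18. Of the 6 genes, Grik2 alone was higher with Maresin 1 than with surgery, under quantile normalisation, linear scaling and cyclic loess.
Dentate granule markers moved alongside Grik2: all 8 were higher with Maresin 1 than after surgery. Their median deviation was 0.06, 0.26 and 0.15 in the Maresin 1 arrays, -0.06, -0.15 and -0.09 after surgery, and -0.31, 0.13 and -0.02 in control. CA3 markers were lower in 4 of 6, with a median of -0.02. The part of either cell type in the Grik2 value was not tested.

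No metabotropic receptor gene passed the test. All 6 measured genes were higher with Maresin 1 than in control, by 0.03 to 0.15, also with linear scaling and cyclic loess, and 5 of 6 were higher after surgery, beside 49% and 58.4% of all genes. Without control replicate 2 the counts were 4 of 6 in both comparisons, and against control replicate 1 alone they were 4 and 3 of 6, with Grm4 at -0.32 and Grm8 at -0.26 under Maresin 1. Grm5, the group I receptor gene that couples to calcium release and binds Homer, stood at 11.35, 11.25 and 11.35 in control, 11.39, 11.40 and 11.43 after surgery, and 11.34, 11.44 and 11.58 with Maresin 1. The surgery arrays lay just above the controls (0.09, SE 0.06, adjusted p = 0.831), and the Maresin 1 difference was 0.13 with overlap (SE 0.06, adjusted p = 0.375).
Grm7, a presynaptic autoreceptor gene, stood at 9.92, 9.95 and 9.62 in control, 9.81, 9.79 and 9.74 after surgery, and 9.86, 9.87 and 10.07 with Maresin 1. It was higher with Maresin 1 than after surgery without overlap (0.15, SE 0.08, adjusted p = 0.859), a difference that linear scaling put at or below 0. Grm4, a presynaptic group III receptor gene, varied widely between arrays, at 8.64, 7.85 and 8.25 in control, 8.29, 8.53 and 8.56 after surgery, and 8.43, 8.30 and 8.26 with Maresin 1. Its surgery difference of 0.21 (SE 0.15, adjusted p = 0.843) became -0.18 against control replicate 1 alone. Grm8, a further presynaptic group III receptor gene, had a control SD of 0.40 around 7.38, with 6.92 in control replicate 2, and means of 7.47 and 7.42 in surgery and Maresin 1. The group II genes Grm2 and Grm3, the latter also expressed in astrocytes, had group means of 9.98, 10.05 and 10.01, and of 10.57, 10.61 and 10.72. Astrocyte markers were higher in 7 of 7 with Maresin 1 than in control, with a median of 0.11, and their part in the Grm3 value was not tested.
Control replicate 2 was the lowest control array for Grm3, Grm4, Grm5 and Grm8. The median difference of the class between surgery and control was 0.08, and it was 0.01 without control replicate 2 and -0.05 against control replicate 1 alone.

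Among the 12 measured postsynaptic scaffold genes, 3 were higher and 9 lower with Maresin 1 than in control, by at most 0.24. Of the membrane-associated guanylate kinases, which anchor the receptors, Dlg4, which encodes PSD-95, stood at 11.77, 11.92 and 11.92 in control, 11.85, 11.82 and 11.78 after surgery, and 11.85, 11.70 and 11.85 with Maresin 1. Its differences were -0.05 for surgery (SE 0.05, adjusted p = 0.893) and -0.07 for Maresin 1 against control (SE 0.05, adjusted p = 0.686). Dlg1, which encodes SAP97, stood at 10.16, 10.12 and 10.13 in control, 10.17, 10.12 and 10.07 after surgery, and 10.06, 10.03 and 10.11 with Maresin 1. The last group was just below control without overlap (-0.07, SE 0.05, adjusted p = 0.676). Dlg2 had group means of 11.15, 11.19 and 11.18, and Dlg3 of 10.16, 10.18 and 10.18.

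Shank and Dlgap genes encode the layer beneath PSD-95. Shank3 stood at 9.91, 10.03 and 10.10 in control, 9.95, 10.04 and 9.87 after surgery, and 10.05, 9.52 and 9.75 with Maresin 1. Shank2 stood at 9.61, 9.58 and 9.53 in control, 9.42, 9.54 and 9.52 after surgery, and 9.58, 9.23 and 9.31 with Maresin 1. Dlgap3 stood at 10.66, 10.79 and 10.75 in control, 10.69, 10.77 and 10.69 after surgery, and 10.79, 10.40 and 10.44 with Maresin 1. In each of these genes Maresin 1 replicates 2 and 3 were the lowest of the 9 arrays and replicate 1 was not among the low arrays. Their differences from control were -0.24 (SE 0.11, adjusted p = 0.412), -0.20 (SE 0.08, adjusted p = 0.366) and -0.19 (SE 0.08, adjusted p = 0.427). Without Maresin 1 replicate 2, the Shank3, Shank2 and Dlgap3 differences from control were -0.11, -0.13 and -0.11, and those from surgery -0.05, -0.05 and -0.10. With that array, the differences from surgery were -0.18 (adjusted p = 0.861), -0.12 (adjusted p = 0.885) and -0.17 (adjusted p = 0.859).
Shank1 was likewise lowest in Maresin 1 replicates 2 and 3, with 11.63, 11.30 and 11.41 under Maresin 1 against 11.55 to 11.61 in control, and its difference from control was -0.13, or -0.06 without replicate 2. Dlgap1 had group means of 11.49, 11.52 and 11.46, where a further probe set differed in sign after surgery (-0.03 against 0.02), and Dlgap2 of 9.74, 9.69 and 9.70. Homer2, a coiled-coil adaptor gene, stood at 8.90 in Maresin 1 replicate 2 and at 9.21 to 9.45 in the other 8 arrays. Homer1, which links Grm5 to calcium stores, had group means of 10.19, 10.17 and 10.23. It also has a short activity-induced form, and which forms its 1 probe set covers was not examined.
Against surgery, 10 of the 12 scaffold genes were lower with Maresin 1 (12 with linear scaling, 9 with cyclic loess), beside 58.3% of all genes. In Maresin 1 replicate 2, 15 of the 42 members had their lowest value of the 9 arrays, and no other array held more than 7. The same count over all genes was not made, so it cannot be called particular to the members. Maresin 1 replicate 2 also had the lowest CA1 marker median, -0.24 against -0.05 to 0.10 in the others, and the highest dentate granule median. The part of tissue make-up in these values was not tested.

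**Figure D3:**
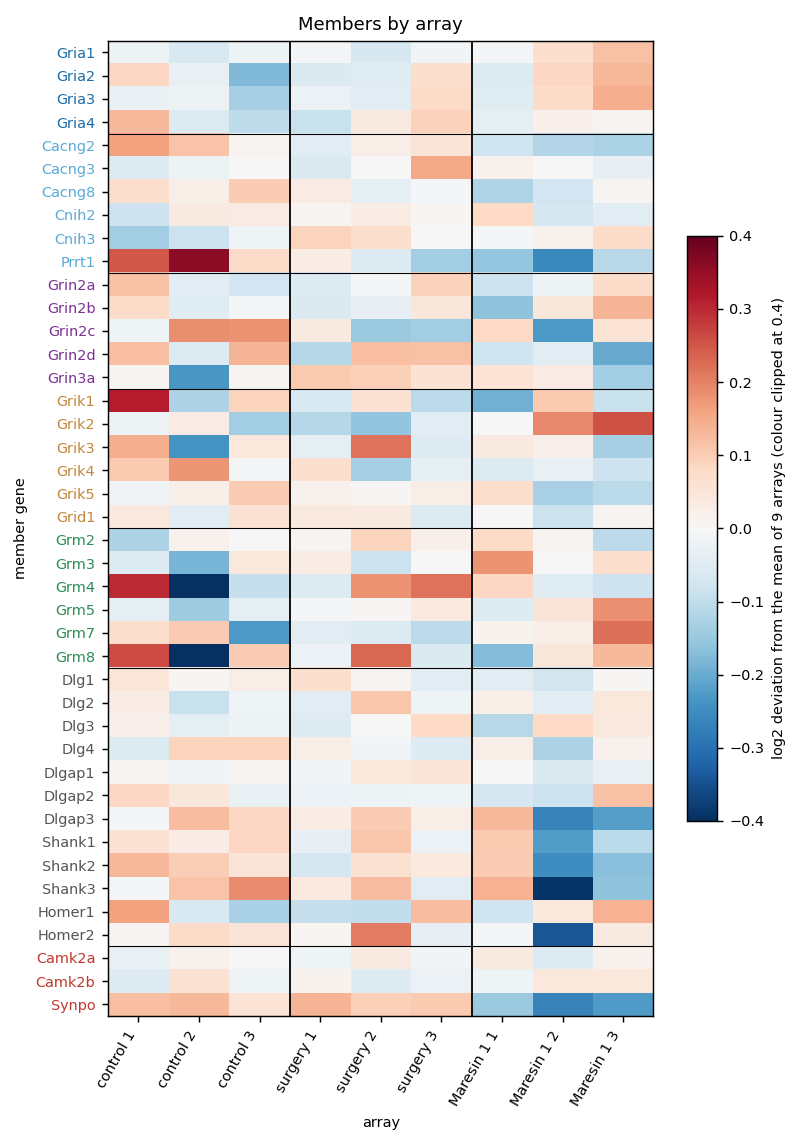
Deviation of each member (rows, by class) from its mean over the 9 arrays (columns), in log2 units, with red above and blue below that mean. The Shank rows and Dlgap3 are blue in Maresin 1 replicates 2 and 3, and Synpo is blue in all 3 Maresin 1 arrays. The Grm4 and Grm8 rows are darkest in control replicate 2.

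CaMKII, the calcium and calmodulin-dependent kinase of the postsynaptic density, was level under quantile normalisation. Camk2a had group means of 12.52 in all 3 groups (SD 0.02, 0.03 and 0.05, n = 3 each), the smallest SE of the members. Camk2b stood at 11.99, 12.10 and 12.03 in control, 12.06, 11.99 and 12.02 after surgery, and 12.03, 12.09 and 12.09 with Maresin 1. By limma, its differences were -0.02 (SE 0.04, adjusted p = 0.967), 0.04 (SE 0.04, adjusted p = 0.909) and 0.03 (SE 0.04, adjusted p = 0.874). With linear scaling, Camk2a and Camk2b were at 0.10 and 0.13 after surgery against control, beside a median of 0.10 over all genes. With Maresin 1 against surgery they were at -0.20 and -0.17, beside -0.089, and with Maresin 1 against control at -0.10 and -0.04, beside 0.0032.
Synpo, which encodes synaptopodin, the actin-binding protein of the spine apparatus, stood apart in its class. It was at 8.56, 8.57 and 8.49 in control and at 8.58, 8.54 and 8.55 after surgery, so these 2 groups coincided (difference 0.01, SE 0.06). With Maresin 1 it was at 8.29, 8.17 and 8.21, below all 6 other arrays. Synpo was lower by 1.24-fold with Maresin 1 than in control (log2 -0.32, SE 0.06, interval -0.45 to -0.18, adjusted p = 0.0886). The difference from surgery was -0.33 (SE 0.06, adjusted p = 0.617), and over 19 alternative settings it ran from -0.43 to -0.28. Against control replicate 1 alone the Maresin 1 difference was -0.33.
Glutamatergic neuron markers moved with Synpo. All 5 were lower with Maresin 1 than after surgery, with a median of -0.10. Slc17a7, the vesicular glutamate carrier gene that defines these neurons, stood at 12.26, 12.27 and 12.26 in control, 12.27, 12.23 and 12.23 after surgery, and 12.16, 12.13 and 12.21 with Maresin 1, also without overlap. Their part in the Synpo and Cacng2 values was not tested.

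Class by class, the medians stayed within 0.1 of 0 in every comparison. Between surgery and control they were 0.02 for AMPA subunits, -0.02 for AMPA auxiliary, -0.02 for NMDA, -0.04 for kainate and delta, 0.08 for metabotropic, -0.02 for scaffold and 0.01 for CaMKII with Synpo, beside 0.02 over all genes. Between Maresin 1 and surgery they were 0.06, -0.05, -0.02, -0.03, 0.00, -0.05 and -0.00 in the same order, beside -0.02 over all genes. Between Maresin 1 and control they were 0.09, -0.07, -0.01, -0.07, 0.09, -0.07 and 0.00, beside -0.00. The spread of the per-array class median between replicates (pooled SD) was 0.08, 0.01, 0.06, 0.04, 0.06, 0.05 and 0.04. It belongs to another measure than the medians of gene differences above. Those exceeded it for metabotropic genes in both comparisons with control and for AMPA auxiliary genes in each of the 3 comparisons. By the per-array medians, however, AMPA auxiliary means were 0.020 in control and 0.012 after surgery, nearer each other than the spread of 0.013. The kainate and delta median exceeded its spread with Maresin 1 against control. With arrays left out it ran from -0.10 to -0.036, partly within that spread. The scaffold median exceeded it with Maresin 1 against both other groups. Without Maresin 1 replicate 2, however, it was -0.027 against control and -0.037 against surgery, both within the spread of 0.046. By the per-array medians, scaffold means were 0.0050 after surgery and -0.0273 with Maresin 1, nearer each other than that spread. The AMPA subunit median of 0.09 with Maresin 1 against control exceeded its spread as well. It was 0.05 without control replicate 3 and 0.03 against control replicate 1 alone, both within the spread. Against control replicate 1 alone the metabotropic median with Maresin 1 was 0.057, also within its spread of 0.062. Among the 7 classes, only for AMPA auxiliary genes did the class medians of the Maresin 1 arrays, -0.04, -0.07 and -0.04, lie apart from the other 6, which ran from 0.00 to 0.03. The 13 other AMPA and kainate auxiliary genes measured outside the members did not separate in this way. Their medians were -0.06, -0.07 and 0.03 in the Maresin 1 arrays and ran from -0.03 to 0.05 in the other 6. No test of a class was made, since the members had been chosen with results known.
The sign of many small differences rested on the scaling. Members split 21 higher and 21 lower between surgery and control, where 58.4% of all genes were higher, but 39 and 3 when arrays were scaled linearly to a common median, where 75.7% of all genes were higher with a median of 0.10. Between Maresin 1 and surgery the split was 12 and 30 (41.7% of all genes higher), against 1 and 41 with linear scaling, where 23% of all genes were higher. Between Maresin 1 and control it was 19 and 23 (49% of all genes higher), against 17 and 25 with linear scaling.

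**Figure D4:**
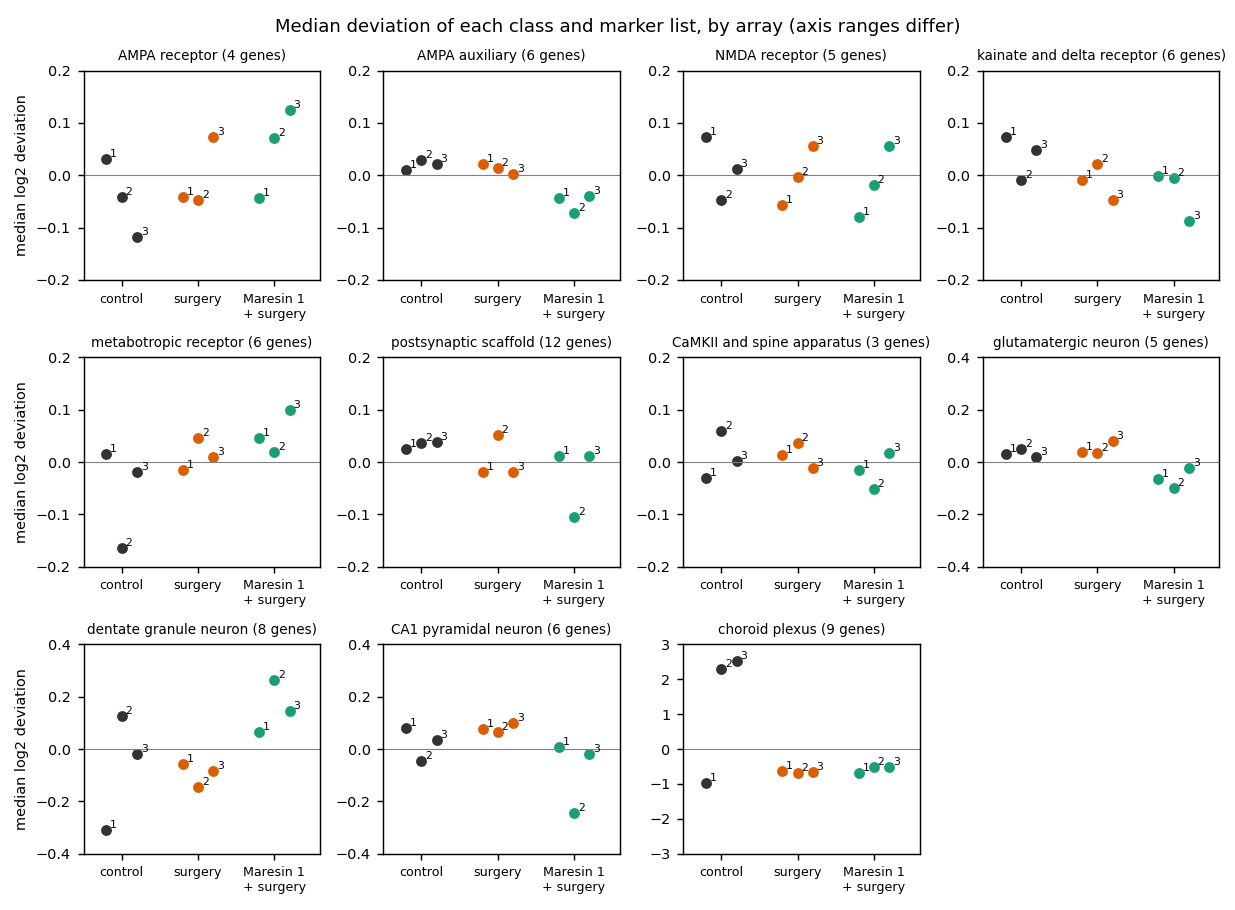
Median over the genes of each class or marker list of the log2 deviation from the 9-array mean (y axis, ranges differ), with 1 numbered point per array in the 3 groups. AMPA auxiliary and glutamatergic neuron medians are lowest in the Maresin 1 arrays, dentate granule medians are higher there than after surgery, and choroid plexus stands at 2.28 and 2.52 in control replicates 2 and 3.

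Other genes of the postsynaptic side, 60 measured of 70 listed, gave a like picture. Limma called 0 of them in each of the 3 comparisons. At an unadjusted p under 0.05 there were 3, 3 and 15, or 5%, 5% and 25%, beside 6.21%, 5.66% and 11.5% of all genes. In the comparison of Maresin 1 with control, 6 of these 15 were higher and 9 lower, beside 5.87% and 5.61% of all genes. The 13 measured AMPA and kainate auxiliary genes among them were 5 higher and 8 lower with Maresin 1 than in control (median -0.05), whatever their p. Shisa6, which encodes another AMPA receptor auxiliary protein, stood at 11.14, 11.16 and 11.08 in control, 10.98, 10.90 and 11.07 after surgery, and 10.75, 10.91 and 10.96 with Maresin 1. All operated arrays were below control, by 0.15 (adjusted p = 0.772) and 0.26 (SE 0.06, adjusted p = 0.125). Dlgap4, a scaffold gene, was at 10.30 to 10.31 in control, 10.24 to 10.29 after surgery and 9.99 to 10.19 with Maresin 1, a difference of -0.22 from control (SE 0.06, adjusted p = 0.152) and -0.19 from surgery (adjusted p = 0.859).
Synaptic adhesion and pentraxin genes, 13 measured, were 6 higher and 7 lower with Maresin 1 than in control (median -0.03). Among those with the smallest p, Lrrtm4, which encodes a synapse organiser of dentate granule cells, stood at 9.69 to 9.92 in control, 9.76 to 9.84 after surgery and 9.99 to 10.10 with Maresin 1, differing by 0.23 from either group (adjusted p = 0.177 and 0.859). Nlgn1, the neuroligin gene of excitatory synapses, differed from control by 0.10 after surgery (adjusted p = 0.796) and 0.17 with Maresin 1 (SE 0.05, adjusted p = 0.215). Nos1, which encodes the nitric oxide synthase tethered to PSD-95, differed from control by -0.19 (adjusted p = 0.739) and -0.25 (adjusted p = 0.186), and the TARP gene Cacng7 by -0.20 with Maresin 1 (adjusted p = 0.234). Camk2n2, an inhibitor gene of CaMKII, differed by -0.31 between Maresin 1 and surgery (SE 0.11, adjusted p = 0.859), and Neto1 and Iqsec1 by -0.09 and -0.13. After surgery Shisa7 and Pick1, a pair of AMPA receptor partner genes, differed from control by -0.15 each without overlap, and Camk2g by 0.11. Of all genes, 3.82% were lower after surgery without overlap.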

How the data were processed

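The deposited table gives 1 intensity per probe set and array, a linear signal that, per the submitters' processing notes, the authors made with Expression Console of Affymetrix. The version, algorithm and background step were not given in the sources used here. Of 35556 probe sets, 21218 name 1 gene, 1881 several and 12457 none in the platform annotation used, and 92 to 244 per array stood at 0. Intensities were quantile normalised over all probe sets, 16 was added and log2 taken, as the deposited values showed no common scale between arrays. The probe set with the highest mean stood for a gene. The test was that of limma 3.58.1 (R 4.3.3), from 1 fit over all 9 arrays, a mean-dependent variance prior and no covariate, and p adjusted by Benjamini-Hochberg over 18820 genes. Arrays have no read depth; 3 per group limit the precision. The script was checked on simulated data. Members and lists were chosen with earlier results of these data known. Values in every array are given for 21 members, by a fixed rule: no overlap between a pair of groups, the 4 largest differences of a comparison, or the smallest p of a class. Up to 6 other postsynaptic genes per comparison are named by smallest p. Alternatives covered scaling, the added constant, a filter on dim genes, probe sets, the variance prior, the arrays fitted, the replicate number as a block and left-out arrays. Promoter sequences are RefSeq's on GRCm38.p6.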

Additional observations from a re-analysis of the deposited data

How the results depend on the processing

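Members gave the same side of the threshold under 19 alternatives, except Prrt1 between Maresin 1 and control. Genes called there were 16, but 38 with linear scaling, 4 against control replicate 1 alone, and 0 without the variance trend, in the 2-group fit and with the replicate block. With arrays left out, genes called ran from 0 to 169 between surgery and control and from 0 to 245 between Maresin 1 and control, both highest without control replicate 1, and members called from 0 to 1. With linear scaling, 37 genes were called between surgery and control.

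Class medians, in the order AMPA, AMPA auxiliary, NMDA, kainate and delta, metabotropic, scaffold, CaMKII with Synpo and all members, were 0.18, 0.11, 0.12, 0.11, 0.22, 0.14, 0.13 and 0.15 between surgery and control with linear scaling, and -0.12, -0.23, -0.17, -0.19, -0.12, -0.22, -0.20 and -0.20 between Maresin 1 and surgery. Over all genes, the medians with linear scaling were 0.10 between surgery and control and -0.089 between Maresin 1 and surgery. Much of these class medians was thus shared with all genes. Between Maresin 1 and control linear scaling gave -0.13 for AMPA auxiliary, -0.10 for CaMKII with Synpo and -0.031 for all members, beside 0.0032 over all genes. Cyclic loess gave -0.093 and -0.040 there for AMPA auxiliary and CaMKII with Synpo. Cyclic loess gave -0.048 for AMPA auxiliary after surgery. Against control replicate 1 alone, surgery medians were 0.00441 for AMPA auxiliary, -0.092 for kainate, -0.053 for metabotropic and -0.034 for all members, and AMPA subunits and NMDA stood at -0.051 and -0.080. Maresin 1 medians against that array were 0.026 for AMPA subunits, -0.066 for NMDA, -0.044 for AMPA auxiliary, -0.11 for kainate and -0.065 for all members. With arrays left out, surgery medians ran from -0.036 to -0.0062 for AMPA auxiliary, -0.052 to 0.046 for NMDA and 0.011 to 0.10 for metabotropic. Maresin 1 medians ran from -0.070 to -0.045 (AMPA auxiliary, against surgery), and against control from -0.085 to -0.049 for AMPA auxiliary and -0.038 to -0.0066 for all members. The cause was not tested.

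The labels do not say whether replicate numbers pair the arrays. Deviations of same-numbered arrays correlated at -0.24 to 0.05. Those of differently numbered arrays correlated at -0.15 to 0.19, with 8 of 18 pairs above 0.1. The replicate block changed no member's call, but as no member was called without it, this cannot decide the pairing.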
